A study of Homo sapiens with 9 samples.

Results

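The genes described here are 46 genes whose products copy the genome or supply the deoxynucleotides used for it. They were listed by name for their known roles, with earlier results of these data known, and all 46 are rows of a table of 35876 gene symbols. Of these, 45 passed the filter on low counts and were tested, and POLE2 did not. The table comes from RNA sequencing of HEK293, an established human embryonic kidney cell line, in a series on a chemically controlled and reversible gene knockout. There were 9 libraries in 3 groups of 3. The labels name the genotypes CC_Cas9, CC_Cas9_Cre and CC_Cas9_Flpo, called Cas9, Cre and Flpo below. All groups therefore carry CC, which the labels do not explain, and Cas9, an RNA-guided DNA nuclease. The Cre group also carries Cre and the Flpo group Flpo, both site-specific DNA recombinases. The labels give no promoter for these transgenes, no clone, no treatment, no time point and no targeted gene. They also do not say that the replicates were separate cultures, so each p-value measures the spread between these libraries, which may be technical.

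Replication starts where the origin recognition complex sits on DNA and, with CDC6 and CDT1, loads the ring of MCM2 to MCM7, the core of the replicative helicase. CDC45, the GINS complex and MCM10 switch that ring on, the primase and polymerase alpha lay down primers, RFC loads the sliding clamp PCNA, and polymerases delta and epsilon extend the strands. Many of these genes are transcribed at the entry into S phase under E2F transcription factors, and ribonucleotide reductase, thymidylate synthase and thymidine kinase provide deoxynucleotides at the same time. HEK293 cells express adenoviral E1A, which binds the retinoblastoma protein and releases E2F.

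The libraries differed greatly in depth. Total estimated counts were 993902, 1643166 and 3761779 in Cas9 replicates 1, 2 and 3, against 1701730, 213907 and 891567 in the Cre group and 8833491, 4989524 and 8435741 in the Flpo group. The highest Cre total was below the lowest Flpo total, so depth and group cannot be told apart in that comparison. A floor of 3 counts, used here as the limit of detection, corresponded to between 0.479 and 0.767 CPM (a gene's count divided by its library's TMM-adjusted total) in the Flpo libraries and to 11.2 CPM in Cre replicate 2. In Cre replicate 2, 22 of the 46 genes were at or under 3 counts, as were 9 in Cre replicate 3 and 5 in Cas9 replicate 1, and none in the other 6 libraries. Of the 8 markers listed for HEK293 cells, 6 were at 0 in Cre replicate 2, 4 in Cre replicate 3 and 2 in Cre replicate 1. In each other library 1 was at 0. The 8 summed to 29.9 CPM in Cre replicate 2 and to between 50.1 and 72.5 CPM in the other libraries. Among them, NEFL lay between 8.43 and 54.1 CPM, TFAP2A between 2.57 and 16.6 CPM, and PAX2 was at 0 in 8 of 9 libraries. The 8 listed liver markers summed to between 8.64 and 107 CPM, nearly all of it TF, with ALB at 0 in 8 libraries and AFP and FGB in all 9. Flpo replicate 2 stood apart on these lists, with 2 of the 8 liver markers at 0 against 5 or 6 in the other libraries and 1 of the 6 blood markers at 0 against 2 to 4. The listed blood markers PTPRC and CD3E were at 0 in 7 and 9 libraries, while LYZ lay between 32.2 and 249 CPM. The 6 listed fibroblast genes summed to 264 to 894 CPM in the Cas9 group, to 550, 6482 and 1381 CPM in Cre replicates 1, 2 and 3, and to 253 to 327 CPM in the Flpo group, and most of that was collagen (COL1A2 reached 3927 CPM in Cre replicate 2). COL1A1, COL1A2 and COL3A1 were higher in Cre than in Flpo by 3.19, 3.47 and 3.05 on the log2 scale (edgeR adjusted p = 0.024, 0.029 and 0.021). PDGFRA was at 0 in Cas9 replicates 1 and 2 and Cre replicates 2 and 3, where the floor in Cre replicate 2 was 11.2 CPM. All other genes on that list were above 0 in every library. The part of these differences in the results below was not tested.

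The 46 genes together held 0.356% ± 0.0468 of all counts with Cas9 alone, 0.267% ± 0.0521 with Cre and 0.580% ± 0.119 with Flpo (SD, n = 3 each). One gene, ORC4, made up 58.4% of their counts in Flpo replicate 2 and 35.3% in Cre replicate 2. Without ORC4 the share was 0.446%, 0.293% and 0.544% in the Flpo libraries, 0.319%, 0.149% and 0.223% in the Cre libraries and 0.291%, 0.340% and 0.392% in the Cas9 libraries. The groups overlapped on that measure, since Flpo replicate 2 lay below Cre replicate 1. In bulk RNA, fewer cells in S phase and less of these RNAs per cell cannot be told apart.

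Of the 3 comparisons between groups, the one of Cre against Flpo called replication genes. In edgeR's quasi-likelihood test with Benjamini-Hochberg adjustment over all 11905 genes tested, 18 of the 45 passed the threshold of 0.05, and all 18 were lower in Cre. Among all genes tested 20.5% passed, 14.3% lower and 6.17% higher in Cre. The 18 were CDC45, TYMS, PCNA, RRM2, RFC4, PRIM2, ORC6, RRM1, CDC6, PRIM1, MCM6, MCM3, MCM7, MCM2, FEN1, RFC2, RFC5 and RFC3, with log2 fold changes from -4.62 (CDC45) to -2.42 (RFC3). The median log2 fold change of the 45 was -1.86 (quartiles -2.99 and -0.32), against -0.34 over all genes tested, and 37 of the 45 were below 0 against 57.3% of all genes. The count changed with single libraries left out and with the way total count was handled, where depth and group cannot be told apart. It was 0 without Cre replicate 2, without Cre replicate 3, without Flpo replicate 1 and with log2 total count as a covariate. Calls were lost across the whole table there, since 0% of all genes tested were called in each of these fits. Of the replication genes, 21 of 46, 18 of 46, 20 of 45 and 1 of 45 tested had an unadjusted p under 0.05 in them. The fit of all libraries without a covariate had 27 of 45, with 39.8% of all genes at that level. That share was not computed for the fits with no call, so their counts have no background to be read against. Without Flpo replicate 3, 6 were called, with 3.28% of all genes. With all libraries thinned to the smallest total, 22 of the 46 could still be tested and 8 were called, 7 lower and 1 higher (GINS4), with 23.3% of all genes, and without TMM scaling, which moved the median of all genes from -0.34 to 0.44, 12 were called lower and 3 higher, with 24.2% of all genes.

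**Figure D1:**
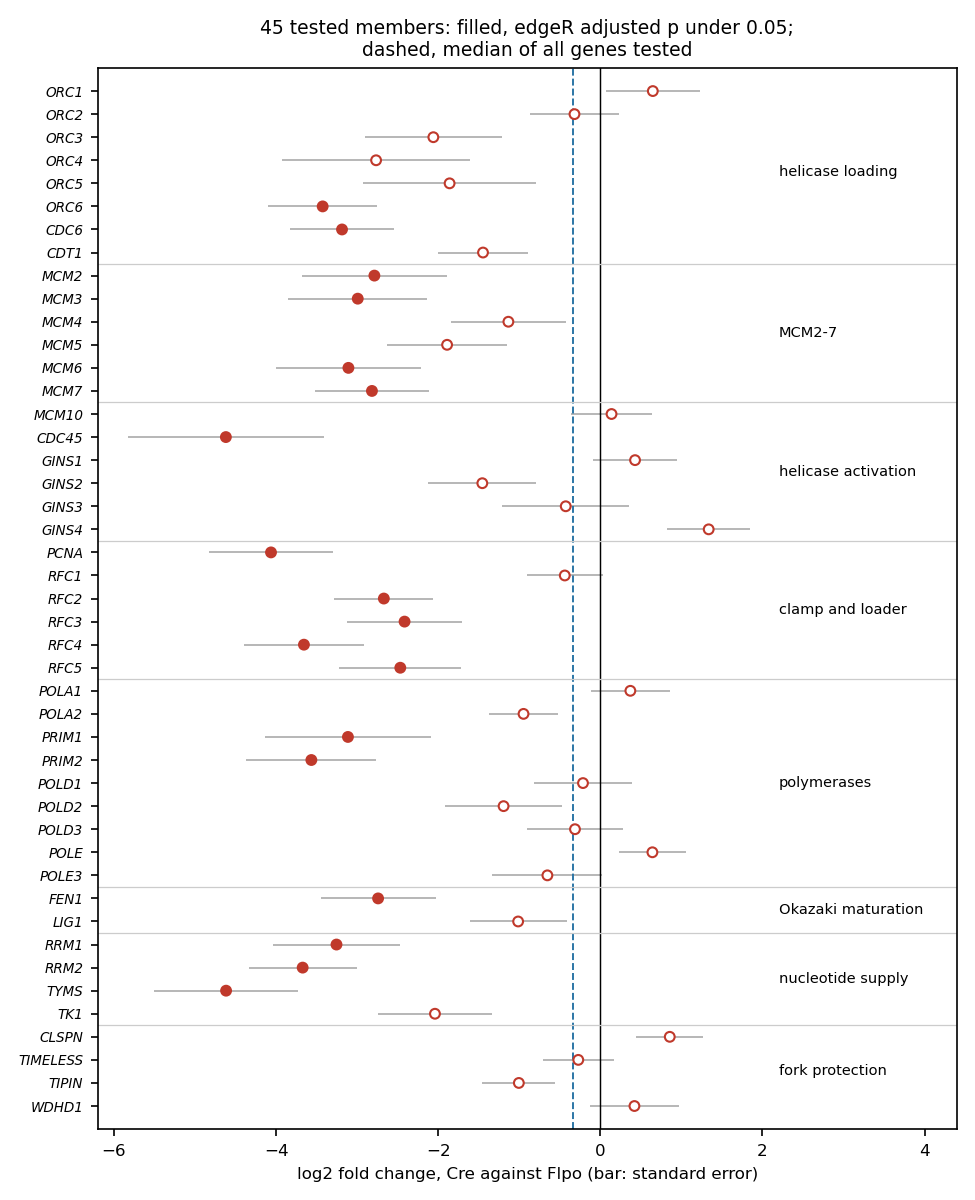
Log2 fold change of Cre against Flpo (x axis) for the 45 tested replication genes (y axis, grouped by role), with bars for the standard error. Filled points are the 18 genes past an edgeR adjusted p of 0.05, all of them left of 0, and the dashed line is the median of all genes tested, at -0.34.

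The order of levels among the 18 called genes is a description, since they were selected for a difference between Cre and Flpo. The Cas9 mean lay between the Cre mean and the Flpo mean in all 18, and the listed Cre values were below the Flpo values in all 18, though several Cre values were at or under the floor of 3 counts (PRIM1 had 2 counts in Cre replicate 2). Within groups, Flpo replicate 2 was the lowest Flpo library for all 18 genes, Cas9 replicate 1 the lowest Cas9 library for 17 and Cre replicate 1 the highest Cre library for 14. These orders follow the libraries' totals in the Flpo and Cas9 groups, where the library named was the shallowest of its group, and in the Cre group, where it was the deepest.

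**Figure D2:**
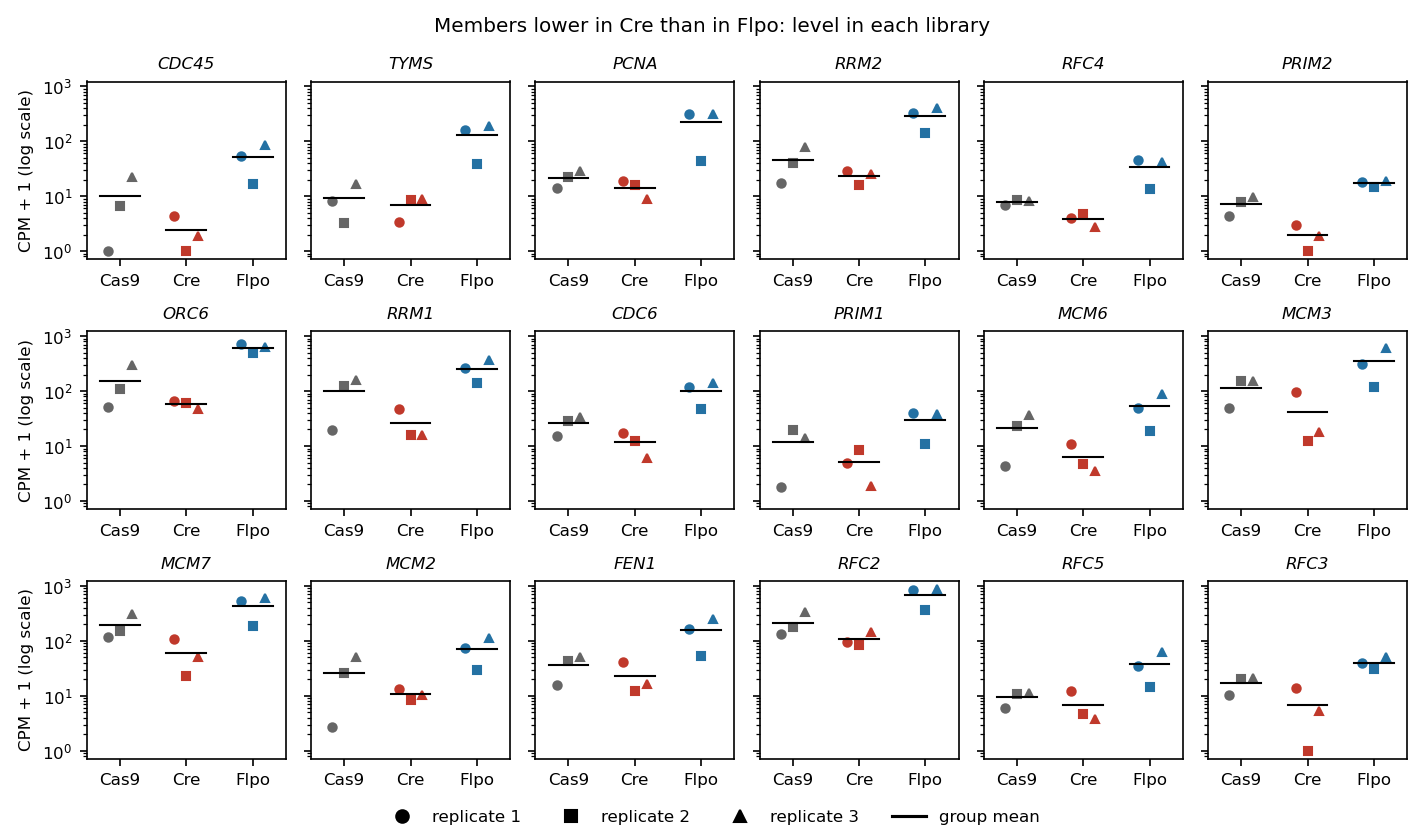
Level of each of the 18 called genes in each library, as CPM plus 1 on a log axis, by group, with replicates as separate symbols and the group mean as a bar. All Cre points are below all Flpo points in every panel, and the square of Flpo replicate 2 is the lowest Flpo point in every panel.

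Of the 8 helicase-loading genes, ORC6 and CDC6 fell in Cre against Flpo, and the median log2 fold change of the 8 was -1.96. ORC6, the smallest subunit of the origin recognition complex, stood at 51.4, 108.6 and 296.1 CPM in the Cas9 libraries, 64.4, 59.5 and 46.3 CPM in the Cre libraries and 709.2, 495.2 and 625.2 CPM in the Flpo libraries. All 3 Flpo libraries lay above the other 6, while Cre and Cas9 overlapped. The difference between Cre and Flpo was -3.43 on the log2 scale (SE 0.68, edgeR adjusted p = 0.0167). CDC6, the ATPase that recruits the helicase to the origin, was at 14.2, 27.3 and 33.1 CPM in Cas9, 16.0, 11.3 and 5 CPM in Cre and 115.4, 46.8 and 138.1 CPM in Flpo, a log2 fold change of -3.19 (SE 0.65, adjusted p = 0.0167). The Flpo libraries again stood above all others, though Flpo replicate 2 by little. CDT1, the second loading factor, showed another order: 90.7, 148.8 and 277.2 CPM in Cas9, 90.4, 39.1 and 39.4 CPM in Cre and 190.2, 134.1 and 142.8 CPM in Flpo. Its Cre libraries were the lowest 3, and its Cas9 and Flpo libraries overlapped. Its log2 difference of -1.45 between Cre and Flpo did not pass (adjusted p = 0.0754).

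The larger subunits of the origin recognition complex did not share one pattern. ORC1 lay between 10.7 and 41.6 CPM and ORC2 between 9.72 and 20.6 CPM, with overlapping groups. ORC3 and ORC5 had log2 fold changes of -2.06 and -1.86 in Cre against Flpo (adjusted p = 0.0899 and 0.204), with ORC3 at 0 in Cre replicate 2 and ORC5 at 0 in Cas9 replicate 1 and Cre replicate 2. Per kilobase of transcript ORC6 had the highest mean level of the group, 161 CPM, and ORC5 the lowest, 2.64 CPM. ORC4 stood apart from the other subunits: it was at 187.3, 58.9 and 149.9 CPM in Cas9, at 66.3, 649 and 164.3 CPM in Cre and at 338.4, 5253 and 330.3 CPM in Flpo. Flpo replicate 2 was far above the other 8 libraries, and Cre replicate 2 was the highest of its group. The ORC4 log2 fold changes of 3.90 in Flpo against Cas9 (adjusted p = 0.114) and -2.77 in Cre against Flpo (adjusted p = 0.096) were 1.33 and -0.22 without Flpo replicate 2. The exons of ORC4 (chr2:147930397-148021604, minus strand) overlap those of ACVR2A and MBD5 on the other strand, and no source used here says whether counting used strand.

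All 6 genes of the MCM2 to MCM7 ring were lower in mean in Cre than in Flpo, with a median log2 fold change of -2.80, and MCM2, MCM3, MCM6 and MCM7 passed. MCM7 was measured at 116.3, 150.3 and 305.8 CPM in Cas9, 108.2, 22.4 and 49.8 CPM in Cre and 520.3, 183.8 and 611.3 CPM in Flpo. Its Cre libraries were the lowest 3 of the 9, and Flpo replicate 2 lay within the Cas9 range. The log2 fold change of Cre against Flpo was -2.82 (SE 0.70, edgeR adjusted p = 0.0213). MCM3 was at 95.0, 11.2 and 17.2 CPM in Cre and at 313.1, 115.5 and 612.7 CPM in Flpo (log2 fold change -2.99, adjusted p = 0.0309). Cre replicate 1 alone came near the lowest Flpo library. MCM6, the lowest subunit per kilobase at 6.88 CPM, was at 9.74, 3.73 and 2.57 CPM in Cre and at 48.7, 18.1 and 87.8 CPM in Flpo (log2 fold change -3.11, adjusted p = 0.0316). The 2 lower Cre values correspond to 1 and 3 counts. MCM2 was at 12.2, 7.47 and 9.44 CPM in Cre and at 72.6, 28.1 and 110.3 CPM in Flpo (log2 fold change -2.79, adjusted p = 0.0437). MCM4 and MCM5 did not pass: MCM4, the highest subunit per kilobase at 175 CPM, was at 757.5, 93.2 and 311.3 CPM in Cre and 1026, 820.1 and 722.2 CPM in Flpo, so that Cre replicate 1 overlapped the Flpo group. MCM5 had a log2 fold change of -1.89 (adjusted p = 0.0804).

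Among the 6 helicase activators, CDC45 alone passed in Cre against Flpo. CDC45, the factor that joins MCM and GINS in the active helicase, was at 0, 5.74 and 21.1 CPM in Cas9, at 3.41, 0 and 0.858 CPM in Cre and at 52.6, 15.8 and 83.7 CPM in Flpo. Its log2 fold change was -4.62 (SE 1.21, edgeR adjusted p = 0.0243). The 3 Cre values correspond to 7, 0 and 1 counts, so the size of that fold change depends on the small prior count the fit adds. The 4 GINS genes, subunits of one complex, went in different directions. GINS4 was at 104.7, 109.2 and 194.6 CPM in Cre and at 46.3, 74.6 and 41.3 CPM in Flpo, with no overlap, and its log2 fold change of 1.34 did not pass (adjusted p = 0.0739). GINS1, GINS2 and GINS3 had log2 fold changes of 0.43, -1.46 and -0.43, and none passed. Per kilobase GINS4 was the highest of the activators, at 24.3 CPM, and GINS3 the lowest, at 4.27 CPM. MCM10, which binds the activated helicase, lay between 13.7 and 28.8 CPM in the 9 libraries with a log2 fold change of 0.14.

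Of the 6 genes of the sliding clamp and its loader, 5 fell in Cre against Flpo, and the median log2 fold change was -2.57. PCNA (chr20:5114953-5126626, minus strand) encodes the clamp that tethers polymerases to DNA. It was at 13.3, 21.2 and 27.4 CPM in Cas9, 17.5, 14.9 and 7.72 CPM in Cre and 310.7, 42.2 and 316.7 CPM in Flpo. Cas9 and Cre overlapped, and Flpo replicate 2 lay much nearer to them than the other 2 Flpo libraries did. The log2 fold change of Cre against Flpo was -4.06 (SE 0.76, edgeR adjusted p = 0.0167). RFC2, the highest of the group per kilobase at 198 CPM, was at 131.6, 176.7 and 333.2 CPM in Cas9, 94.0, 82.8 and 146 CPM in Cre and 825.8, 365.3 and 872.7 CPM in Flpo (log2 fold change -2.67, SE 0.61, adjusted p = 0.0187). RFC4 was at 5.96, 7.46 and 7.14 CPM in Cas9, 2.98, 3.73 and 1.72 CPM in Cre and 44.7, 12.5 and 41.8 CPM in Flpo (log2 fold change -3.66, SE 0.74, adjusted p = 0.0167). The RFC4 values of the 3 groups did not overlap, but those of Cre replicates 2 and 3 are 1 and 2 counts, under the floor, so Cre and Cas9 cannot be separated at this depth. RFC3 and RFC5 had log2 fold changes of -2.42 and -2.47 (adjusted p = 0.0339 and 0.0377), and RFC5 was the lowest of the group per kilobase, at 6.89 CPM. RFC1, the large subunit of the loader, lay between 24.9 and 97.1 CPM, with a log2 fold change of -0.44 (adjusted p = 0.494). The 4 small subunits thus passed where the large subunit did not. That difference between subunits was not itself tested.

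Of the 9 polymerase and primase genes tested, the 2 primase subunits passed and no subunit of a polymerase did, and the median log2 fold change was -0.65. PRIM1, the catalytic primase subunit, was at 0.831, 18.9 and 13.0 CPM in Cas9, 3.90, 7.47 and 0.858 CPM in Cre and 38.6, 9.81 and 37.8 CPM in Flpo (log2 fold change -3.11, SE 1.03, edgeR adjusted p = 0.0480). The lowest Flpo library was within the Cas9 range. PRIM2, the regulatory subunit, was at 3.32, 7 and 8.59 CPM in Cas9, 1.95, 0 and 0.858 CPM in Cre and 17.1, 13.6 and 17.6 CPM in Flpo (log2 fold change -3.57, SE 0.80, adjusted p = 0.0185). Its Cre values are 4, 0 and 1 counts, and the floor in Cre replicate 2 is above every Cas9 value, so that Cre and Cas9 cannot be separated at this depth. POLA1 and POLA2, the polymerase alpha subunits that work with primase, had log2 fold changes of 0.37 and -0.95 (adjusted p = 0.578 and 0.117). The catalytic subunits of the 2 main replicative polymerases did not pass either: POLD1 was at 31.2, 11.2 and 11.3 CPM in Cre and 21.2, 9.65 and 34.6 CPM in Flpo, and POLE was at 77.0, 103.6 and 95.3 CPM in Cre and 60.7, 67.8 and 47.9 CPM in Flpo. POLD1 overlapped between these groups. POLE did not overlap and was higher in Cre, with a log2 fold change of 0.64 (adjusted p = 0.257). POLD2, the highest polymerase subunit per kilobase at 61.7 CPM, had a log2 fold change of -1.19 (adjusted p = 0.228), and POLD3 and POLE3 had -0.31 and -0.65. POLE2, the lowest at 2.19 CPM per kilobase, was not tested. It stood at 1.66, 6.31 and 4.57 CPM in Cas9, 3.58, 0 and 1.72 CPM in Cre and 6.90, 4.86 and 5.75 CPM in Flpo.

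FEN1, the flap endonuclease that trims Okazaki fragments, fell in Cre against Flpo, and LIG1, the ligase that seals them, did not pass. FEN1 was at 15, 42.5 and 49.4 CPM in Cas9, 39.5, 11.2 and 15.4 CPM in Cre and 166.5, 51.9 and 254.5 CPM in Flpo. Each Flpo library was above the other 6, Flpo replicate 2 by a small margin, and the log2 fold change was -2.74 (SE 0.71, edgeR adjusted p = 0.0235). LIG1 was at 22.4, 22.4 and 12.0 CPM in Cre and 31.2, 18.4 and 63.2 CPM in Flpo, so that the groups overlapped, with a log2 fold change of -1.01 (adjusted p = 0.215). Their mean levels per kilobase were 31.3 and 7.03 CPM.

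The nucleotide supply genes had the lowest median of the role groups, -3.46, and 3 of 4 passed. TYMS (chr18:657604-673578, plus strand), which makes thymidylate, was at 7.09, 2.30 and 15.9 CPM in Cas9, 2.42, 7.47 and 7.72 CPM in Cre and 161.7, 37.6 and 192.8 CPM in Flpo. Cas9 and Cre overlapped, and the lowest Flpo library was above both. The log2 fold change of Cre against Flpo was -4.62 (SE 0.89, edgeR adjusted p = 0.0167). RRM2, the S-phase subunit of ribonucleotide reductase, was at 16.7, 39.4 and 77.0 CPM in Cas9, 27.4, 14.9 and 24.1 CPM in Cre and 332.7, 143.1 and 403.1 CPM in Flpo (log2 fold change -3.67, SE 0.67, adjusted p = 0.0167). RRM1, its large subunit, was at 18.4, 124.6 and 156.8 CPM in Cas9, 46.8, 14.9 and 14.6 CPM in Cre and 257.2, 140.2 and 370.9 CPM in Flpo (log2 fold change -3.26, SE 0.79, adjusted p = 0.0203). For RRM1 the Cas9 libraries spanned the gap, with replicate 1 in the Cre range and replicate 3 in the Flpo range. TK1, the thymidine kinase of the salvage pathway, was at 37.0, 7.47 and 5.15 CPM in Cre and 101.3, 32.7 and 90.4 CPM in Flpo. Cre replicate 1 and Flpo replicate 2 overlapped, and the log2 fold change of -2.04 did not pass (adjusted p = 0.0550). Per kilobase RRM1 was the highest of the 4, at 41.3 CPM, and TK1 the lowest, at 27.1 CPM.

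None of the 4 fork protection genes passed, and their median log2 fold change in Cre against Flpo was 0.07. CLSPN, the checkpoint mediator claspin, was at 95.8, 73.7 and 72.1 CPM in Cas9, 100.4, 124.7 and 124 CPM in Cre and 58.9, 70.8 and 61.4 CPM in Flpo. Its groups did not overlap, with Cre highest, and its log2 fold change was 0.86 (edgeR adjusted p = 0.14). TIMELESS and TIPIN are partners in one complex, and TIMELESS lay between 44.8 and 88.6 CPM with overlapping groups (log2 fold change -0.27). TIPIN, the highest of the group per kilobase at 63.4 CPM, was at 72.0, 84.3 and 92.3 CPM in Cre and 199.2, 130.9 and 172.2 CPM in Flpo, a log2 fold change of -1.01 (adjusted p = 0.114). WDHD1, which links the helicase to polymerase alpha and was the lowest per kilobase at 2.79 CPM, had a log2 fold change of 0.42.

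**Figure D3:**
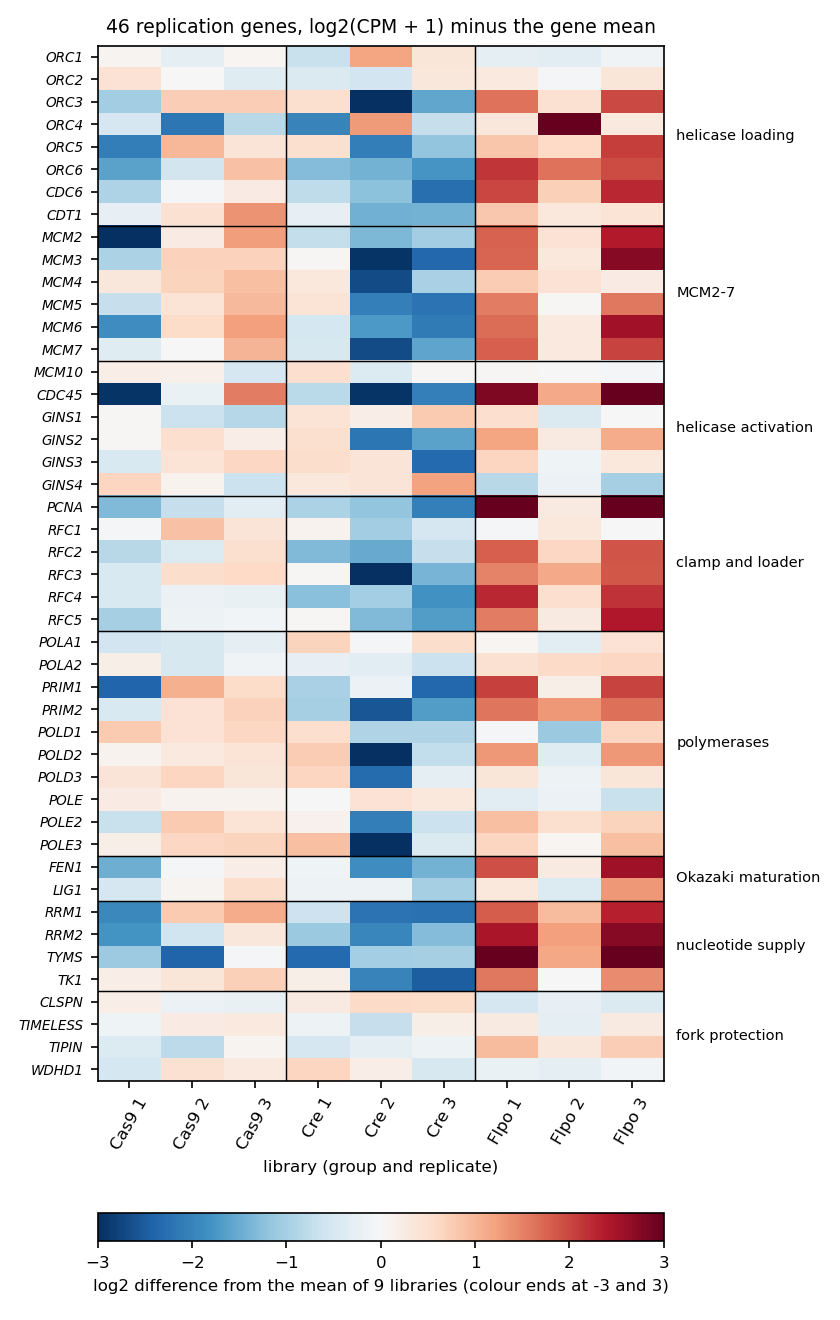
Each of the 46 genes (rows, grouped by role) in each of the 9 libraries (columns), as log2(CPM + 1) minus the gene's mean over the libraries, with red above and blue below that mean and the colour scale ended at -3 and 3. Flpo replicates 1 and 3 are red and Cre replicates 2 and 3 blue for most genes, Flpo replicate 2 and Cre replicate 1 are paler, and ORC4 is darkest in Flpo replicate 2.

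Each recombinase group was also set against Cas9 alone. Both comparisons use the same Cas9 libraries, so their values are given side by side only. No replication gene passed in Flpo against Cas9 or in Cre against Cas9, where edgeR called 0.227% and 0% of all genes tested. In Flpo against Cas9, 12 of the 45 had an unadjusted p under 0.05, all higher in Flpo, against 13.2% of all genes higher and 6.78% lower at that level. They were ORC4, ORC6, CDC6, CDC45, PCNA, RFC2, RFC4, RFC5, FEN1, RRM2, TYMS and TIPIN. The median log2 fold change of the 45 was 0.82, against 0.05 over all genes, and 11 were below 0, against 48.3% of all genes. TYMS and PCNA came nearest to the threshold, with log2 fold changes of 3.87 and 3.42 (SE 0.80 and 0.72, adjusted p = 0.0590 for both), and RRM2 followed with 2.71 (adjusted p = 0.0692). The groups did not overlap for 16 of the 45, 14 with Flpo higher and 2 (POLE and CLSPN) with Flpo lower, against 25% of all genes, 12.9% higher and 12.2% lower. Without Flpo replicate 2, 10 of the 45 passed, all higher in Flpo: PCNA, TYMS, RRM2, RFC4, FEN1, CDC6, RFC5, RFC2, ORC6 and CDC45. In that fit 21.3% of all genes passed, with 1376 higher and 1309 lower in Flpo among 12595 tested. TYMS alone passed without Cas9 replicate 3 (log2 fold change 4.77, adjusted p = 0.0498; 0.591% of all genes). With DESeq2 8 of 45 passed, against 8.95% of all genes, and with no filter on low counts 8 of 46, against 4.6%.

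In Cre against Cas9, 5 of the 45 had an unadjusted p under 0.05, all lower in Cre, against 6.03% of all genes lower at that level. These were CDT1, RRM1, MCM7, PRIM2 and ORC6, with log2 fold changes of -1.60, -1.90, -1.62, -2.25 and -1.43 and an edgeR adjusted p of 0.619 each. The median of the 45 was -0.74, against -0.22 over all genes, and 35 were below 0, against 58.4% of all genes. All 6 genes of the MCM ring, all 6 of the clamp and its loader and all 4 of nucleotide supply were below 0, with medians of -1.38, -0.90 and -1.14. The groups did not overlap for 9 of the 45, with GINS1, POLA1 and CLSPN higher in Cre and CDT1, MCM4, MCM7, RFC4, PRIM2 and TK1 lower, against 9.84% of all genes, 3.46% higher and 6.38% lower. Without Cre replicate 1 the median was -1.56 and still no gene passed. In Cre against Flpo, for comparison, 25 of the 45 did not overlap, 22 of them lower and 3 higher in Cre (GINS4, POLE and CLSPN), against 43.3% of all genes, 28% lower and 15.3% higher. A test of any difference among the 3 groups called 11 of the 45, against 9.51% of all genes.

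**Figure D4:**
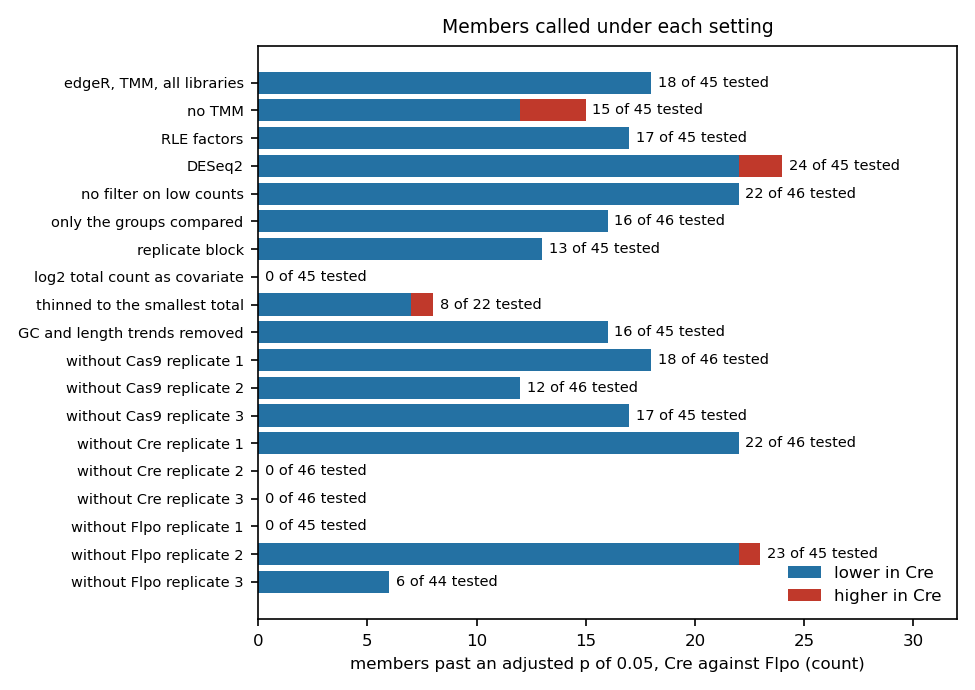
Number of the replication genes past an adjusted p of 0.05 in Cre against Flpo (x axis) under each way of processing the counts (y axis), split into genes lower and higher in Cre, with the number tested beside each bar. The count is 18 in the first bar, with 20.5% of all genes tested, and ranges up to 24 with DESeq2, with 33.4% of all genes. It is 0 with total count as a covariate and without Cre replicate 2, Cre replicate 3 or Flpo replicate 1. The fits with a count of 0 called 0% of all genes tested.

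A second list held 58 other genes of initiation, the fork, nucleotide metabolism and S-phase control, of which 54 were tested. In Cre against Flpo 15 were called lower and 1 higher in Cre (background 14.3% and 6.17%), with a median of -1.34. SLBP, which binds histone mRNA stem loops, had the smallest p and was at 1.95, 3.73 and 0.858 CPM in Cre and 90.4, 23.8 and 119 CPM in Flpo, a log2 fold change of -5.43 (SE 0.82, edgeR adjusted p = 0.0167). Its Cre values were all at or under 4 counts. GMNN, the geminin inhibitor of CDT1, NME1, a nucleoside diphosphate kinase whose exons overlap a readthrough gene, and RPA2, a subunit of the single-strand binding protein, had log2 fold changes of -4.51, -4.63 and -3.95 (adjusted p = 0.0167 each). DCTPP1, a dCTP pyrophosphatase, fell by 3.78 (adjusted p = 0.0174). By sublist, 3 of 10 initiation genes, 4 of 17 fork genes, 5 of 12 nucleotide genes and 3 of 15 S-phase control genes were called lower. MTBP, a partner of the origin-firing factor TICRR and the single call in the other direction, was at 95.1, 60.7 and 136 CPM in Cre and 19.8, 45.1 and 13.1 CPM in Flpo (log2 fold change 1.92, adjusted p = 0.0419). Against Cas9 no gene of this list passed in either recombinase group. At an unadjusted p under 0.05, 15 of the 54 were higher and 3 lower in Flpo, against 13.2% and 6.78% of all genes. At that level 5 of the 54 were lower in Cre, against 6.03% of all genes. Of the E2F genes on this list, E2F1 and E2F3 had log2 fold changes of -1.01 and -1.30 in Cre against Flpo and did not pass (adjusted p = 0.259 and 0.141). E2F2 fell by 1.66 (adjusted p = 0.0316). The pseudogene E2F3P2 held 4080 counts over all libraries, against 760 for E2F3, and whether reads were shared between them was not tested. As for the 46 genes, no gene of this list passed without Cre replicate 2, Cre replicate 3 or Flpo replicate 1. None passed with total count as a covariate either. In these fits 27 of 58, 20 of 58, 19 of 55 and 2 of 54 tested had an unadjusted p under 0.05. The share of all genes at that level was not computed for them. Without Flpo replicate 3, 5 of 54 passed. The fits with no call on this list called 0% of all genes tested, and the fit without Flpo replicate 3 called 3.28%.

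The called genes had shorter transcripts than the others. The longest transcript of the 18 had a median of 2355 bases (1359 to 4810), against 3744 bases (1681 to 7840) for the 27 tested and not called. Across the 45 genes, length and the log2 fold change of Cre against Flpo had a Spearman rho of 0.55, and across 11867 genes with a length rho was 0.23. In Flpo against Cas9 the values were -0.52 and -0.19. GC content and fold change had a rho of 0.0065 across the 45. These are descriptions across genes of the same libraries, and genes are not independent replicates. With the trends on GC and length removed from the counts, 16 of the 45 were called, 15 of them among the 18, with 19.8% of all genes. Mean level did not separate the sets, since the median was 46.8 CPM in the called and 45.5 CPM in the others. Exons overlapped another annotated gene in 9 of the 18 and 12 of the 27. The called ones were MCM2, MCM7, RFC4, RFC5, PRIM1, FEN1, RRM1, RRM2 and TYMS. For PRIM1, FEN1 and RRM2 an overlapping gene lies on the same strand, where the strand of a read would not separate them. Where the overlap is on the other strand, reads cannot be told apart without a stated strand setting. Pseudogenes of the called genes took few counts, at most 11 over all 9 libraries (RRM2P2, against 5461 for RRM2).

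**Figure D5:**
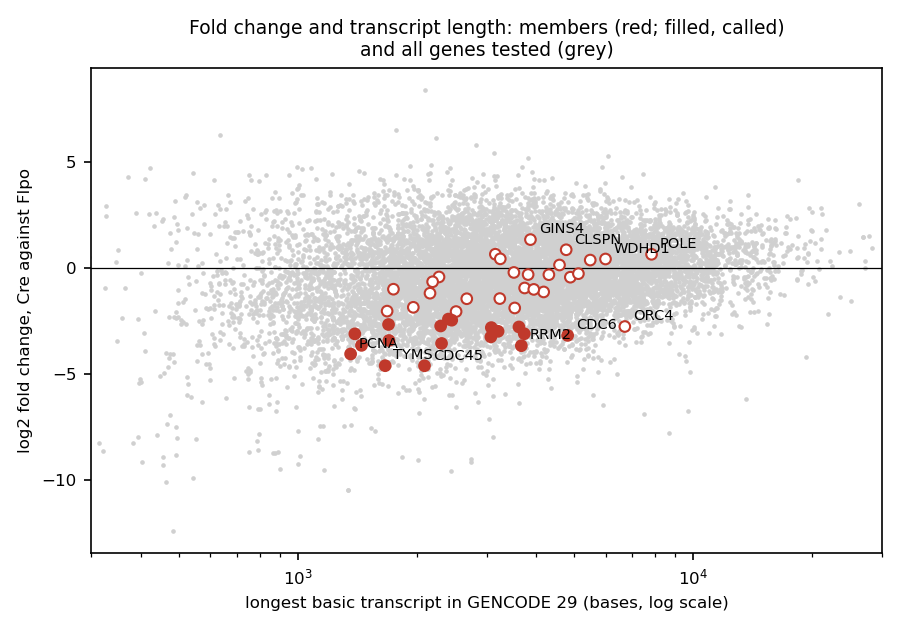
Log2 fold change of Cre against Flpo (y axis) against the length of the longest annotated transcript in bases (x axis, log scale) for all genes tested (grey) and the 45 replication genes (red, filled where called). The filled points lie between 1359 and 4810 bases, and the longest replication genes, POLE and ORC4, are open points.

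Because E2F factors are known to drive many of these genes, the promoters were read for E2F letters. RefSeq promoters (GRCh38.p14, 250 bases before the start) matched 42 of the 46 genes. The letters searched, on both strands, were TTTGGCGC, TTTCCCGC, TTTCGCGC and TTTGCCGC for E2F and CCAAT for the CCAAT box, and matches of different motifs may overlap. E2F letters stood in a promoter of 14 of the 42 (33.3%), against 3.4% of all genes and 2.79% of all promoters. They stood in 6 of the 18 called genes and in 8 of the 24 others (POLE2, not tested, among them), 33.3% in both. These shares hold for the spellings searched only. The near spelling TTTGGCGG, for example, was not searched. It stands before the start of the called genes CDC6 and CDC45, which had no match, and of CDT1 and POLA2, which did not pass and had a match. On the strand opposite the gene it also stands before the start of RFC1, which did not pass and had no match. In the whole RefSeq window of 300 bases, 50 of them after the start, the E2F letters searched stood in 8 of the 18 and 12 of the 24. CCAAT stood in 25 of the 42 (59.5%), in 11 of the 18 called (61.1%) and in 14 of the 24 others (58.3%), against 37.0% of all genes and 32% of all promoters. A match is a description of the sequence and not evidence of a bound site. The promoters of 4 genes are shown, PCNA, TYMS and MCM6 as called genes and POLE as a gene that did not pass, each in lower case from 5′ to 3′ on the gene's strand with E2F and CCAAT letters of either strand in capitals. The E2F match of PCNA (chr20:5126623-5126872, minus strand) begins 59 bases before the start, that of TYMS (chr18:657403-657652, plus strand) 39 bases and that of POLE (chr12:132687343-132687592, minus strand) 18 bases. MCM6 (chr2:135876444-135876693, minus strand) has 4 matches in 2 overlapping pairs, where TTTGGCGC on the gene's strand is joined to TTTCGCGC on the other.
PCNA: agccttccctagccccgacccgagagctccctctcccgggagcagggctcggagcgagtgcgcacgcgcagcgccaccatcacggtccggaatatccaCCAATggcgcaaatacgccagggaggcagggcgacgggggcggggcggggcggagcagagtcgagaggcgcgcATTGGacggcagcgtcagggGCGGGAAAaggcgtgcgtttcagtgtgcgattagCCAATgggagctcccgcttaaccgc
TYMS: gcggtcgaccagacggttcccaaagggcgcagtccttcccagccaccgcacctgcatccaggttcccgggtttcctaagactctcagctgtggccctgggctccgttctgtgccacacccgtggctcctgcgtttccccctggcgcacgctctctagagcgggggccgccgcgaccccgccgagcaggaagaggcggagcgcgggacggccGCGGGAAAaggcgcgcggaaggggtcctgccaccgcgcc
MCM6: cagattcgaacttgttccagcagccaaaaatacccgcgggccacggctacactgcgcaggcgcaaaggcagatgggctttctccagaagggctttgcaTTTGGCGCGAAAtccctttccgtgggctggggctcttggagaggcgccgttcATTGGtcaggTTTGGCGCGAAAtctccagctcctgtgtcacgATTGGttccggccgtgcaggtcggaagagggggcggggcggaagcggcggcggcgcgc
POLE: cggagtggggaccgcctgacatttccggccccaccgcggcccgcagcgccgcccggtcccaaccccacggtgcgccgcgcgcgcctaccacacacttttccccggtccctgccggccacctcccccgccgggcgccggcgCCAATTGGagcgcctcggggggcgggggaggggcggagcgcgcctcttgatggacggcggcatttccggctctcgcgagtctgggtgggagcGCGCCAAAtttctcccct
The run of capitals is the same in both MCM6 pairs. The single matches of PCNA and TYMS are the same letters on the strand opposite the gene, and PCNA also holds 3 CCAAT matches, MCM6 and POLE 2 each and TYMS none.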

How the data were processed

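Per the labels' protocols, TRIzol RNA went into a TruSeq RNA kit, and the cells are called livers of HEK293 there. The authors deposited estimated counts per gene symbol for 9 libraries, not normalized. The submitters' processing notes name Salmon 0.14.1 and hg38, and filters and the use of strand are not given in the sources used here. Estimated counts were rounded to whole numbers for the tests.

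All 9 libraries entered one fit in edgeR 4.0.16 (R 4.3.3): quasi-likelihood test, TMM scaling, edgeR's default filter (count 10, total 15), with Benjamini-Hochberg adjustment over 11905 genes and a threshold of 0.05. Standard errors are |log2 fold change| over the root of F. CPM values use TMM-scaled totals, and levels per kilobase use the longest transcript in GENCODE 29 (GRCh38). The code was tested on simulated data with less spread between libraries than these data have. That test checked the code and not its performance on data this variable. The members and lists were chosen with earlier results of these data known. Named genes are those past the threshold, the highest and lowest of each role, and at most 5 other pathway genes per comparison by smallest p. Other genes named, such as CDT1, ORC4, GINS4, MTBP, E2F1, E2F2 and POLE, were chosen to complete a complex or after their values were seen. Alternatives used DESeq2 1.42.0, other scalings and filters, a replicate block, a depth covariate, thinned counts, GC and length trends, and each library left out.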

Additional observations from a re-analysis of the deposited data

Results flagged for a closer look

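The test of Cre against Flpo is also the test of whether the 2 recombinase groups differ from Cas9 by different amounts, since Cas9 enters both differences. By that test 18 of the 45 replication genes and 16 of the 54 other pathway genes differed between the recombinase groups (edgeR adjusted p under 0.05), against 20.5% of all genes tested. Both counts were 0 without Cre replicate 2, without Cre replicate 3, without Flpo replicate 1 and with log2 total count as a covariate. In each of these fits 0% of all genes tested were called, so calls were lost across the whole table. The log2 fold changes of the 18 were -4.62 for CDC45, -4.62 for TYMS, -4.06 for PCNA, -3.67 for RRM2, -3.66 for RFC4, -3.57 for PRIM2, -3.43 for ORC6, -3.26 for RRM1 and -3.19 for CDC6. They were -3.11 for PRIM1, -3.11 for MCM6, -2.99 for MCM3, -2.82 for MCM7, -2.79 for MCM2, -2.74 for FEN1, -2.67 for RFC2, -2.47 for RFC5 and -2.42 for RFC3. No gap test for a deviating library was run within a group, since groups of 3 are not tested that way.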

How the results depend on the processing

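For the replication genes in Cre against Flpo, the direction held in every alternative that tested them for PCNA, TYMS, RRM2 and the other called genes, except under log2 total count as a covariate. There the median turned from -1.86 to 0.19, the median of all genes being 0.19 too. Of the 45 genes 25 were above 0, where the fit without the covariate had 8. Single genes were followed only if their unadjusted p without the covariate was under 0.05. Of those, CDT1 (0.20), MCM5 (0.91), ORC3 (1.38), GINS2 (0.44), MCM2 (0.57), MCM3 (0.11), TK1 (0.046), CDC45 (1.37) and MCM6 (0.48) turned positive. In Flpo against Cas9 the median turned to -0.23 (all genes -0.25), and 18 of the 45 were above 0, where the fit without the covariate had 34. Of the genes followed in that comparison, CDC45 turned, to -1.47. No gene of either list was called under this covariate, in Cre against Flpo or in the test of any difference (0 each). No other gene tested was called there either (0% of all genes). The median in Cre against Flpo was -1.12 without TMM and -1.10 after thinning, where 8 replication genes and 5 other pathway genes were called and, for any difference, 3 and 3 (23.3% and 8.18% of all genes). All genes called split into 735 higher and 1705 lower with TMM, 2039 and 840 without, and 551 and 561 after thinning, and the median of all genes was -0.34, 0.44 and 0.28.

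For any difference, the 11 replication genes and 10 other pathway genes called became 6 and 5 without TMM (8.09% of all genes), 17 and 19 with DESeq2 (24.1%), and 19 and 20 with no filter (12.3%). In Flpo against Cas9, where none was called, DESeq2 and no filter each called 8 replication genes, and 6 and 7 other genes, with 8.95% and 4.6% of all genes. Leaving out 1 library at a time gave 0 to 23 replication genes and 0 to 26 other genes in Cre against Flpo, 0 to 10 and 0 to 16 in Flpo against Cas9, and 0 to 19 and 0 to 23 for any difference. The upper ends come from the fit without Flpo replicate 2, which called 44.1%, 21.3% and 33.3% of all genes. Medians then ran from -2.46 to -1.32 in Cre against Flpo, 0.61 to 1.25 in Flpo against Cas9 and -1.56 to -0.49 in Cre against Cas9. The causes were not tested.

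The replicate numbers were checked for pairing: deviations of libraries with the same number had a mean correlation of -0.311 (Cre and Cas9), -0.0876 (Flpo and Cas9) and 0.12 (Cre and Flpo), the lowest being -0.529, so the numbers were not taken to pair the libraries. With the replicate block 13 of the 18 were called (13.2% of all genes), and 6 replication genes and 4 other genes for any difference (3.58%). Depth limits all of this: a gene at 3 counts is at 11.2 CPM in Cre replicate 2 and at 0.479 CPM in Flpo replicate 3.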
